A study of Homo sapiens with 6 samples.

Results

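The genes described here encode the nuclear subunits and assembly factors of respiratory complexes III, IV and V and cytochrome c. They were chosen by symbol alone from the read count table: names beginning with UQCR or ATP5 and a letter, the COX subunit and assembly genes, CYC1, CYCS, SURF1, SCO1 and SCO2. Of 58 matching symbols, ATP5MF-PTCD1, ATP5MGL and ATP5F1E had no count in any library and none was a pseudogene, which left 55 genes of the 20610 in the table. They comprise 10 genes of complex III, 1 for cytochrome c, 15 for subunits of complex IV, 11 for its assembly, 5 for the F1 part of complex V and 13 for its Fo part with the peripheral stalk. COX4I1 lies outside the pattern and is given among other genes of complex IV.

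Polyadenylated RNA was sequenced from HT1080, an established human fibrosarcoma cell line, in 3 wild-type (WT) libraries and 3 libraries from cells in which CRISPR-Cas9 was used to disrupt PGK1 (KO). PGK1 is the glycolytic phosphoglycerate kinase, an ATP-forming enzyme, and the study concerns its part in ferroptosis. No treatment beyond the edit is labelled, and every library carries the same batch label. The sources used here give neither the guide nor the edited position, and do not say if the edited cells are clonal. Nor do they say if libraries of a group are separate cultures, so that p-values rest on a spread between libraries that may be technical only.

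Complex III takes electrons from ubiquinol and passes them to cytochrome c, a small soluble haem protein of the intermembrane space. Complex IV passes them on from cytochrome c to oxygen. Both pump protons, and complex V, the ATP synthase, lets the protons return through its Fo ring and makes ATP in its F1 head. Cells that rely on glycolysis still build these complexes. Cytochrome c has another role as well, since its release into the cytosol triggers caspase activation through APAF1.

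Library totals were 30175903 to 47047186 counts. Pearson correlations of log2 CPM were 0.984 to 0.991 within groups and 0.893 to 0.900 between them. PGK1 counts were 55085, 62272 and 51171 in WT against 7144, 5515 and 5234 in KO (log2 fold change -3.20, adjusted p = 5.13e-15, edgeR quasi-likelihood test), so the direction matched the labels. Of the fibroblast markers, 4 of 5 tested were lower in KO, VIM and FN1 among them, but both stayed abundant, whereas COL1A1 and COL1A2 were near 0 in both groups. The epithelial marker EPCAM was at 0 in all libraries, and of the 5 tested epithelial markers 2 were higher in KO, ESRP1 (0.0367 to 2.63 CPM) and CDH1 (0.0489 to 0.964 CPM), and 2 were lower, KRT8 (179 to 78.0 CPM) and CLDN4 (1.88 to 1.05 CPM), while KRT18 was not called. The 4 blood markers were under the filter on low counts. The part of these markers in the results below was not tested. Within its group, KO library 3 was the highest for 36 of the 51 genes tested and KO library 2 the lowest for 38.

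The respiratory genes did not move together. Of 51 genes that passed the filter on low counts, 35 changed at an adjusted p under 0.05 (68.6%), where 76.4% of all 13249 genes tested did. Of these, 22 were higher in KO (43.1%, against 40.0% of all genes) and 13 were lower (25.5%, against 36.3%), and 16 were not called. The shares called were near the background or below it, and the median log2 fold change was 0.10, beside 0.05 over all genes. In 37 of the 51 genes (72.5%) the 3 KO values lay wholly above or below the 3 WT values, as they did in 79.2% of all genes. Only 4 of the 51, CYCS, COX14, SCO2 and COX6B2, were called with a log2 fold change of 1 or more in size, a size that 31.0% of all genes reached. In bulk RNA, a change in the cells' composition and a change in RNA per cell cannot be told apart.

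The filter let COX6B2 through only by its WT libraries and SCO2 only by its KO libraries. Among the 49 genes above the cutoff in both groups, 33 changed, 21 of them higher and 12 lower. Of these 49, only 2, CYCS and COX14, were called with a log2 fold change of 1 or more in size. COX6A2, COX7A1, COX7B2 and COX8C were too low to test, as described with complex IV. Scaled by library size alone, without the TMM factors, the median of all genes shifted by 0.224 on the log2 scale, and 31 respiratory genes were higher and 10 lower, against 6613 and 3779 of all genes. Log2 fold changes, calls and CPM below are therefore relative to the TMM scaling unless another is named. FPKM values hold no TMM factor, so differences in FPKM between groups are not on that scale.

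**Figure D1:**
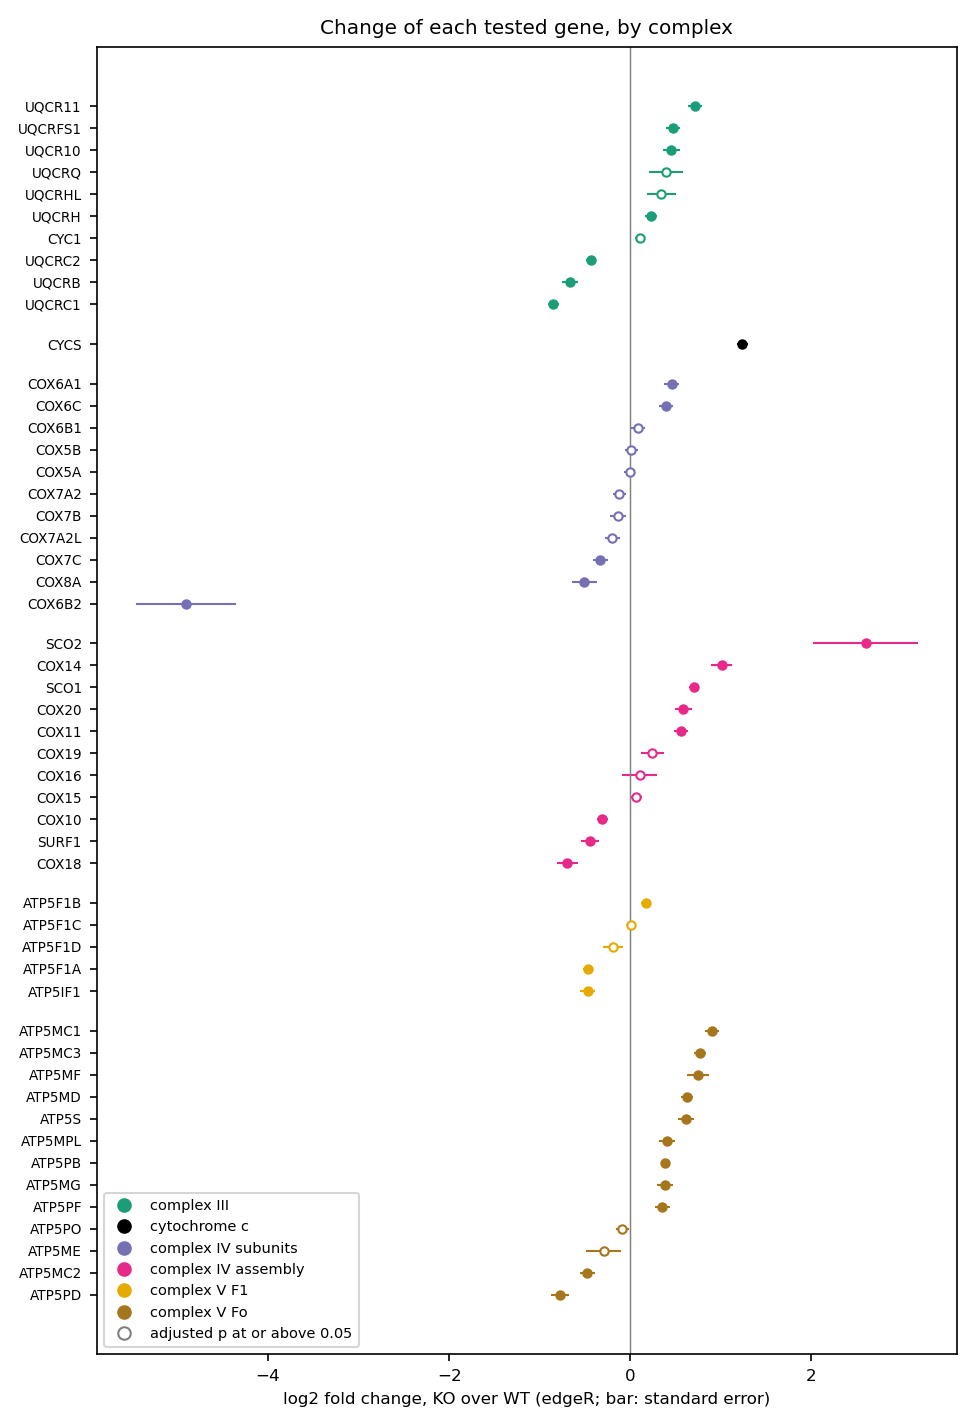
Log2 fold change of each tested gene (KO over WT, horizontal axis; bars are standard errors of the edgeR fit), grouped and coloured by complex, with open points for genes not called. Most points lie within 1 log2 unit of 0 on either side, CYCS stands at 1.24, and COX6B2 at -4.91 lies furthest from 0.

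In complex III, the large core proteins fell while several small subunits rose. Of its 10 genes, 4 were higher (40%, against 40.0% of all genes), 3 lower (30%, against 36.3%) and 3 not called. The median log2 fold change was 0.28. The groups did not overlap in 9 of the 10, as in 79.2% of all genes. With upper-quartile factors 6 were higher, and by library size alone 7. UQCRC1, core protein 1 on the matrix side, had 277, 268 and 263 CPM in WT and 152, 137 and 160 CPM in KO. Its KO level was 55.6% of WT (log2 fold change -0.85, SE 0.060, adjusted p = 5.90e-09, edgeR), and the groups were far apart. UQCRC2, its partner core protein, stood at 173, 164 and 171 CPM in WT and 124, 120 and 132 CPM in KO, a log2 fold change of -0.43. UQCRB, a small subunit next to the ubiquinone site, had 105, 103 and 104 CPM in WT and 69.6, 54.6 and 71.9 CPM in KO, a log2 fold change of -0.67. Every KO library lay below every WT library for all 3 of these genes.

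UQCR11, a small accessory subunit, moved the other way, with 26.8, 27.5 and 23.2 CPM in WT and 42.8, 40.1 and 44.3 CPM in KO (log2 fold change 0.71, SE 0.079, adjusted p = 9.60e-07, edgeR). UQCR10, another small subunit, rose by 0.45 on the log2 scale, from 18.9 ± 1.96 to 26.0 ± 1.34 CPM (SD, n = 3 each). UQCRFS1, the Rieske iron-sulfur protein that takes the first electron from ubiquinol, rose by 0.47, from 76.5 ± 2.75 to 106 ± 14.1 CPM. None of these 3 genes overlapped between groups. Transcripts of a single complex thus went in both directions, in shares near those of all genes.

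UQCRH, the hinge protein that meets cytochrome c1, had the highest level per gene length of complex III in both groups, 214.9 FPKM in WT and 293.2 FPKM in KO. Its scaled counts were 157, 152 and 153 CPM in WT and 186, 160 and 194 CPM in KO, a log2 fold change of 0.23 that was no longer called without KO library 1 (0.19, adjusted p = 0.0562, edgeR) and was 0.13 without KO library 3. UQCRHL, an intronless copy of UQCRH, had 4.44, 4.63 and 3.74 CPM in WT and 5.82, 4.85 and 5.54 CPM in KO and was not called (log2 fold change 0.34, adjusted p = 0.0667, edgeR), although it was with upper-quartile factors (0.39) and by library size alone (0.56). The coding sequences of the pair are identical at 272 of 276 positions, with an uninterrupted shared run of 178 nt between their transcripts, so reads may have been split between them. On the per-length scale the log2 ratio of UQCRHL to UQCRH was -4.88 ± 0.161 in WT and -4.76 ± 0.067 in KO, a difference of 0.12 (two-sided exact permutation p = 0.3).

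CYC1, the haem-bearing cytochrome c1, was close to the threshold, at 134 ± 3.69 CPM in WT and 144 ± 5.93 CPM in KO (log2 fold change 0.10, adjusted p = 0.0831, edgeR). CYC1 was called higher with upper-quartile factors (0.15, adjusted p = 0.0139, edgeR), with a filter of 1 CPM in 3 libraries (0.12, adjusted p = 0.0483, edgeR), by library size alone (0.33) and in both limma fits on FPKM (0.32). UQCRQ, a small subunit, had 16.7, 18.1 and 14 CPM in WT and 23.0, 15.6 and 25.7 CPM in KO, with KO library 2 inside the WT range (adjusted p = 0.0867, edgeR). Without that library it was called, at 0.56 (adjusted p = 0.000334, edgeR), as it was by DESeq2 (0.37), by library size alone (0.61) and in the limma fits on FPKM (0.55 and 0.59).

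Cytochrome c itself rose, with the smallest p-value of the 51 genes. CYCS had 118, 124 and 132 CPM in WT and 288, 279 and 314 CPM in KO. The lowest KO library stood above the highest WT library by a wide margin. The KO level was 2.36 times the WT level (log2 fold change 1.24, SE 0.059, adjusted p = 8.12e-11, edgeR), and over all alternatives the log2 fold change was 1.14 to 1.46. Per gene length, CYCS went from 20.8 ± 1.24 to 57.2 ± 2.21 FPKM. The gene lies at chr7:25120091-25125361 of GRCh38 on the minus strand, and the annotation names 40 CYCS pseudogenes elsewhere, so reads from its coding sequence may align at several places. The sources used here do not state how such reads were counted.

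**Figure D2:**
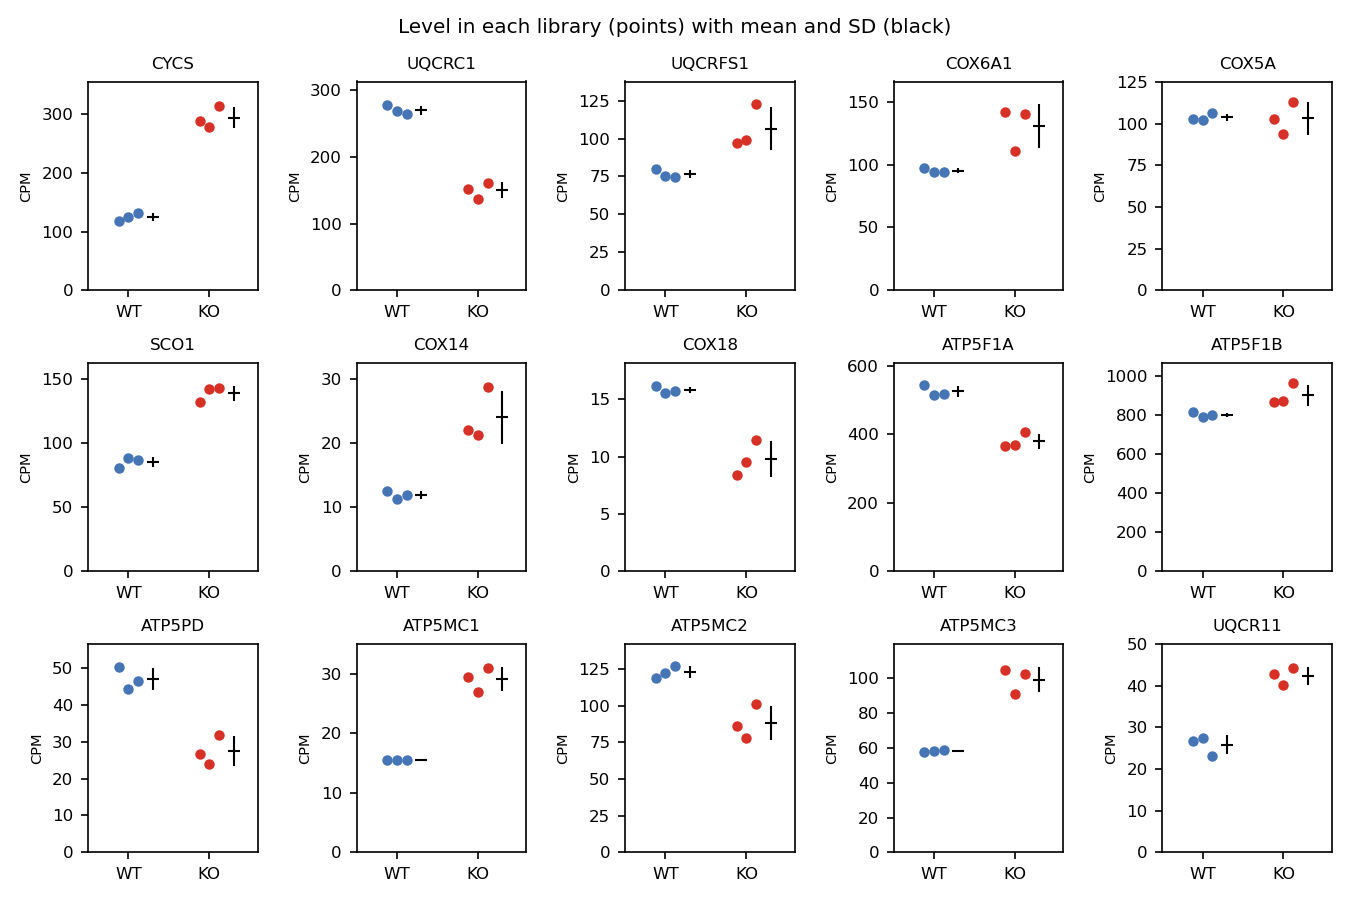
CPM of 15 genes in each library (vertical axes from 0; blue points WT, red points KO; black marks are the mean and SD of 3 libraries). The KO points of CYCS lie between 279 and 314 CPM, above all WT points, those of UQCRC1 lie below all WT points, and those of COX5A overlap WT.

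Among the subunits of complex IV that surround the mitochondrially encoded core, most genes measured showed no call. Of 11 tested, 2 were higher (18.2%, against 40.0% of all genes), 3 lower (27.3%, against 36.3%) and 6 not called. Their median log2 fold change was -0.12. By library size alone 5 were higher and 1 lower, with a median of 0.10. Without KO library 3, 2 were higher and 6 lower. The sign of the median thus depended on the scaling, and the number of falls on 1 library.

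The rises were those of COX6A1 and COX6C. COX6A1, the subunit 6A form found outside heart and muscle, had 97.6, 93.8 and 93.9 CPM in WT and 142, 110 and 140 CPM in KO (log2 fold change 0.46, SE 0.084, adjusted p = 0.000362, edgeR). COX6C had 28.0, 28.6 and 26.3 CPM in WT and 37.1, 32.5 and 39.4 CPM in KO, a log2 fold change of 0.39. In both genes KO library 2 was the lowest of its group yet above all WT libraries. The annotation names 17 COX6C pseudogenes.

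The falls were COX7C, COX8A and COX6B2. Among the complex IV subunit genes chosen here, COX7C had the highest level per gene length in WT (259 ± 17.4 FPKM). In KO it had 240 ± 24.1 FPKM, below COX6A1 at 246 ± 30.8 FPKM. The scaled counts of COX7C were 122, 115 and 105 CPM in WT and 92.7, 79.1 and 100 CPM in KO. The groups did not overlap, and the log2 fold change was -0.33 (SE 0.083, adjusted p = 0.00323, edgeR). COX8A had 119, 110 and 101 CPM in WT and 79.0, 62.5 and 91.0 CPM in KO, a log2 fold change of -0.51 (adjusted p = 0.0130, edgeR). By library size alone neither was called, at -0.11 for COX7C and -0.29 for COX8A.

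COX6B2, the testis form of subunit 6B, was low in WT and nearly lost in KO. It passed the filter on low counts only by its WT libraries, so its p-value is not taken as support. Its counts were 76, 57 and 58 in WT against 4, 0 and 2 in KO, which is 1.63 ± 0.346 CPM against 0.0488 ± 0.0435 CPM (log2 fold change -4.91, SE 0.555, adjusted p = 1.23e-06, edgeR). With so few KO counts the size is uncertain: over the alternatives it was -5.65 to -0.88, nearest 0 with limma on log2(FPKM + 1), whose pseudocount understates low genes. Its ubiquitous counterpart COX6B1 was far more abundant and was not called, with 64.1, 64.5 and 59.4 CPM in WT and 71.3, 57.0 and 70.8 CPM in KO. COX6B1 was called higher without KO library 2 (0.16, adjusted p = 0.0440, edgeR).

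The other tissue-restricted forms were at the edge of detection. COX6A2, the heart and muscle form of subunit 6A, had 0 counts in each WT library and 1, 0 and 1 in KO. COX7A1, the heart and muscle form of subunit 7A, had 5, 6 and 2 counts in WT and 3, 1 and 0 in KO. COX7B2 had 0 counts in WT and 2, 0 and 0 in KO, and COX8C had 0, 2 and 1 in WT and 2, 0 and 2 in KO. All 4 were therefore too low to compare, and the forms found in most tissues made up nearly all of the signal for these subunits.

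COX7A2, the widespread form of subunit 7A, had 58.0, 52.7 and 48.7 CPM in WT and 49.4, 47.7 and 49.6 CPM in KO. COX7A2L, a relative that joins complexes III and IV into supercomplexes, had 142, 145 and 139 CPM in WT and 127, 106 and 140 CPM in KO, just short of a call (log2 fold change -0.20, adjusted p = 0.0534, edgeR). COX7A2L was called lower with RLE factors (-0.22, adjusted p = 0.0374, edgeR), without a filter on low counts (-0.21), by DESeq2 (-0.22), by limma voom (-0.21) and with the length trend removed (-0.19), but it was at 0.02 by library size alone. KO library 3 stood with the WT libraries. Without it COX7A2L was called (-0.33, adjusted p = 8.56e-06, edgeR), as was COX7A2 (-0.17, adjusted p = 0.0162, edgeR). COX7A2 was also called without WT library 3 (-0.19). The log2 ratio of COX7A2L to COX7A2 per gene length was 1.09 ± 0.116 in WT and 1.00 ± 0.174 in KO, a difference of -0.09 (two-sided exact permutation p = 0.6).

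COX7B had 34.3, 38.6 and 37.5 CPM in WT and 37.5, 32.7 and 29.9 CPM in KO and was not called (adjusted p = 0.160, edgeR), although it was without KO library 1 (-0.25). The remaining pair, COX5A and COX5B, both on the matrix side, differed by -0.01 and 0.01 on the log2 scale. COX5A was at 104 ± 2.06 CPM in WT and 103 ± 9.68 CPM in KO and was called lower without KO library 3 (-0.12), but higher by library size alone (0.21).

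The assembly factors of complex IV also changed in both directions, in shares near those of all genes. Of 11, 5 were higher (45.5%, against 40.0% of all genes), 3 lower (27.3%, against 36.3%) and 3 not called. Their median log2 fold change was 0.24. SCO1, which delivers copper to the CuA centre of the COX2 subunit, had 80.8, 88.5 and 87.1 CPM in WT and 132, 142 and 143 CPM in KO (log2 fold change 0.70, SE 0.056, adjusted p = 2.58e-08, edgeR). COX11, which serves the CuB centre of COX1, had 28.7, 32.5 and 30.2 CPM in WT and 43.7, 43.2 and 48.0 CPM in KO, a log2 fold change of 0.56. For both copper factors every KO library was above every WT library.

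COX14, which acts on newly made COX1, had 12.6, 11.3 and 11.9 CPM in WT and 22.0, 21.4 and 28.8 CPM in KO, with a rise in KO (log2 fold change 1.01, SE 0.113, adjusted p = 1.28e-06, edgeR). COX20, a chaperone of newly made COX2, had 23.2, 27.1 and 23.9 CPM in WT and 35.0, 34.2 and 42.5 CPM in KO, a log2 fold change of 0.59. KO library 3 was the highest for both, and neither group overlapped the other. COX20 overlaps HNRNPU on the opposite strand, and HNRNPU was also higher in KO (0.53), so without a stated strand setting the reads of the pair cannot be told apart.

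The factors that fell act on COX2 insertion, on haem A and at an early step. COX18, which helps to insert COX2 into the inner membrane, was lower in KO, at 15.8 ± 0.301 CPM in WT and 9.79 ± 1.54 CPM in KO (log2 fold change -0.70, adjusted p = 6.54e-05, edgeR). SURF1, an early assembly factor mutated in Leigh syndrome and the most abundant of the class per gene length in WT, had 34.7, 32.1 and 31.9 CPM in WT and 23.7, 20.5 and 28.4 CPM in KO, a log2 fold change of -0.44. COX10, which makes the haem A precursor, was at 53.4 ± 2.86 CPM in WT and 43.1 ± 1.09 CPM in KO (-0.31, but -0.08 and not called by library size alone). COX15, which completes haem A, did not pass the test (60.9 ± 2.71 and 63.8 ± 4.74 CPM). SURF1 overlaps SURF2 on the opposite strand, and SURF2 was higher in KO (0.71).

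SCO2, the relative of SCO1, was close to the detection limit. It passed the filter on low counts only by its KO libraries, so its p-value is not taken as support. It had 5, 4 and 1 counts in WT and 24, 19 and 18 in KO and was higher in KO (log2 fold change 2.60, SE 0.578, adjusted p = 0.000850, edgeR), with 0.54 to 3.02 over the alternatives that kept it. Its locus overlaps TYMP on the same strand, and TYMP had 8, 6 and 4 counts in WT and 46, 42 and 25 in KO, so the counts of the pair may share reads. COX16 and COX19 did not pass the test. COX19 (15.2 ± 2.29 and 18 ± 2.75 CPM, adjusted p = 0.103, edgeR) was called higher without WT library 2 (0.36) or without KO library 3 (0.32), by library size alone (0.47) and in both limma fits on FPKM (0.36 and 0.45). It overlaps ADAP1. COX16 shares its locus with a readthrough gene, and COX11, like ATP5PF, UQCRQ and ATP5ME, overlaps genes on the opposite strand, so their counts carry the same doubt.

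In the F1 head of the ATP synthase, the catalytic pair diverged. ATP5F1A, the alpha subunit, had 546, 516 and 518 CPM in WT and 366, 370 and 406 CPM in KO, a fall to 72.4% of WT (log2 fold change -0.47, SE 0.056, adjusted p = 2.23e-06, edgeR). ATP5F1B, the beta subunit that carries the catalytic sites, had 812, 788 and 798 CPM in WT and 867, 872 and 961 CPM in KO. Its log2 fold change was 0.17 (SE 0.057, adjusted p = 0.0130, edgeR). The call of ATP5F1B was lost under RLE factors (0.15) and without WT library 2 (0.15), WT library 3 (0.16) or KO library 3 (0.08).

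The alpha and beta subunits alternate in equal number in the F1 hexamer, and ATP5F1B had the highest level per gene length of all 55 genes in both groups, 401.5 FPKM in WT and 527.2 FPKM in KO. ATP5F1A held rank 3 in WT at 244.1 FPKM and rank 5 in KO at 205.9 FPKM. The annotation names 7 ATP5F1A pseudogenes. HAUS1, which overlaps ATP5F1A on the opposite strand, was lower as well (-0.62).

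ATP5IF1, the small protein that inhibits reverse ATP hydrolysis by the F1 head, had 23.4, 24.9 and 23.7 CPM in WT and 18.7, 15.9 and 17.2 CPM in KO (log2 fold change -0.47, SE 0.085, adjusted p = 0.000142, edgeR), and the groups did not overlap. ATP5F1D, the delta subunit of the central stalk, had 80.9, 74.0 and 73.7 CPM in WT and 67.1, 55.5 and 77.7 CPM in KO and was not called (adjusted p = 0.135, edgeR). KO library 3 lay within the WT range, and without it ATP5F1D was called lower (-0.35), as it was with the length trend removed (-0.22). ATP5F1C, the gamma subunit that turns inside the head, was at 88.9 ± 0.246 and 89.1 ± 4.45 CPM. Across the 5 genes 1 was higher (20%, against 40.0% of all genes), 2 were lower (40%, against 36.3%) and 2 not called.

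**Figure D3:**
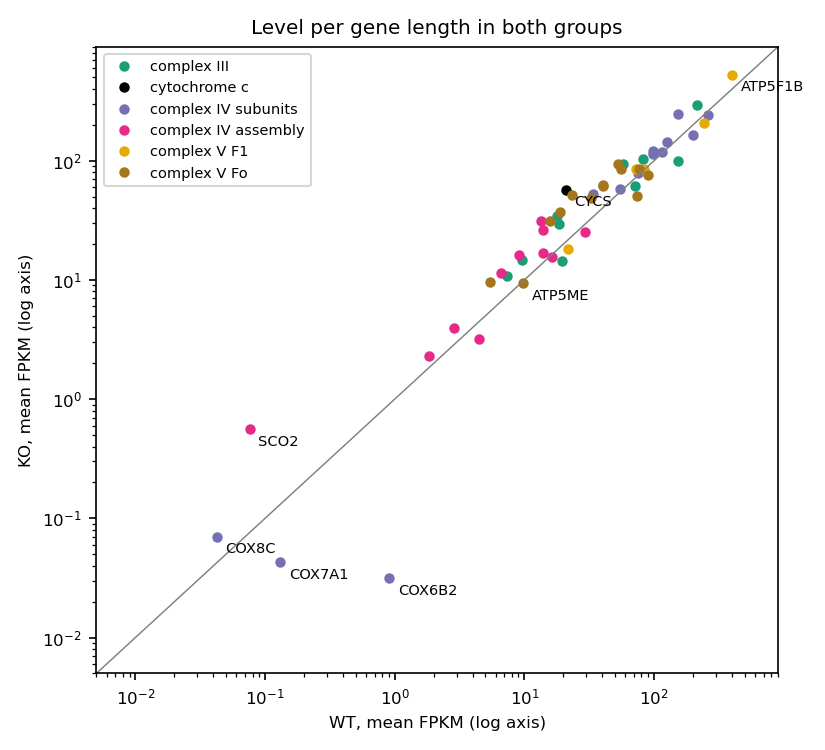
Mean level per gene length in WT (horizontal) and KO (vertical) for the 53 genes with a value above 0 in both groups, in FPKM on log axes, coloured by complex; the line marks equal FPKM and no errors are drawn. FPKM holds no TMM factor, so the line does not mark equal levels on the TMM scale. ATP5F1B stands highest in both groups, CYCS lies above the line, and COX6B2 lies far below it at 0.0316 FPKM in KO.

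Most genes of the Fo part with the peripheral stalk rose. Of 13 genes, 9 were higher, 2 lower and 2 not called, with a median log2 fold change of 0.39. The counts of 9 and 2 were the same with TMM, RLE and upper-quartile factors and with library size alone, and without KO library 3 they were 9 and 3. The 2 falls were ATP5MC2, described next, and ATP5PD. With 13 genes, 69.2% higher stood beside 40.0% of all genes, and no test compared this class with the others.

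The c ring, which rotates as protons pass, is built from identical copies of subunit c, and 3 nuclear genes encode the same mature protein behind different targeting sequences. Their coding ends are shown because the levels of these genes diverged although the protein they give is one and the same. The last 77 codons encode identical residues, and the sequences below run from there to the stop codon, 234 nt in all (GENCODE release 29 transcripts, GRCh38). Capitals mark the 58 positions at which the 3 are not all alike. ATP5MC1 lies on chr17:48892765-48895871, ATP5MC2 on chr12:53632726-53677408 and ATP5MC3 on chr2:175176258-175184607.
ATP5MC1: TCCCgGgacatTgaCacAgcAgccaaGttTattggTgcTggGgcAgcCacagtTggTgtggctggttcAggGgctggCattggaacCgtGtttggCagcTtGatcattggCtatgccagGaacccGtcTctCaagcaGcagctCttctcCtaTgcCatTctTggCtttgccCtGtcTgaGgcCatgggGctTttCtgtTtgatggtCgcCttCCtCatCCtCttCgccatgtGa
ATP5MC2: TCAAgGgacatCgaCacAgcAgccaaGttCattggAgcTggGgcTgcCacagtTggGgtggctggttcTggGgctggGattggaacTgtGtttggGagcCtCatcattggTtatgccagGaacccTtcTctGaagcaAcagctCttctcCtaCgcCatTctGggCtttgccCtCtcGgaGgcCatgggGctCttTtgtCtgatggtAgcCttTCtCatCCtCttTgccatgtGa
ATP5MC3: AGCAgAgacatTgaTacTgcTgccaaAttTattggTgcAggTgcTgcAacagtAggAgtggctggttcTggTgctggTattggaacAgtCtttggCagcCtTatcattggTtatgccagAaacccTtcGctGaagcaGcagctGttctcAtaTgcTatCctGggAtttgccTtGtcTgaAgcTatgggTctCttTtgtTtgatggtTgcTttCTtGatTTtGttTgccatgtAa

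Over this stretch ATP5MC1 and ATP5MC2 are 88.5% identical, and ATP5MC3 is 79.9% identical to either. Between the transcripts of any pair the uninterrupted shared run is at most 20 nt, so the near-copies differ throughout. The sources used here do not state the read length. The annotation also names 7 pseudogenes of ATP5MC1 and 3 of ATP5MC2.

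ATP5MC1 had 15.5, 15.5 and 15.6 CPM in WT and 29.4, 26.9 and 30.9 CPM in KO (log2 fold change 0.90, SE 0.081, adjusted p = 9.06e-08, edgeR). ATP5MC3 had 57.6, 58.0 and 58.9 CPM in WT and 104, 90.7 and 102 CPM in KO (log2 fold change 0.77, SE 0.062, adjusted p = 2.82e-08, edgeR). ATP5MC2 had 119, 122 and 127 CPM in WT and 85.9, 77.8 and 101 CPM in KO (log2 fold change -0.48, SE 0.081, adjusted p = 0.000167, edgeR). So the predominant gene of the trio fell and the minor genes rose, with no overlap of groups in any.

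On the per-length scale, ATP5MC2 gave 67.4, 68.0 and 68.6% of the summed FPKM of the 3 genes in WT and 44.6, 45.0 and 48.2% in KO. The share of ATP5MC1 went from 17.8 ± 0.402% to 31.4 ± 0.828%. That of ATP5MC3 went from 14.2 ± 0.193% to 22.7 ± 1.23%. The sum of the 3 genes was 131.9 ± 3.81 FPKM in WT and 163.5 ± 12.4 FPKM in KO. FPKM holds no TMM factor, so this sum is not on the scale of the log2 fold changes. Shares within a library do not depend on that factor. All 3 KO libraries showed the same shift in composition, and ATP5MC2 remained the leading gene in each.

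Within libraries, the log2 ratio of ATP5MC2 to ATP5MC1 was 1.93 ± 0.045 in WT and 0.55 ± 0.098 in KO, a difference of -1.38. For ATP5MC3 to ATP5MC2 the ratio was -2.27 ± 0.032 in WT and -1.02 ± 0.139 in KO, a difference of 1.25. ATP5MC3 to ATP5MC1 was at -0.33 ± 0.014 in WT and -0.47 ± 0.053 in KO, a difference of -0.14. Each of these 3 differences separated the groups completely and had a two-sided exact permutation p of 0.1, the smallest that 3 against 3 libraries allow, or 0.167 after Benjamini-Hochberg adjustment over the 5 pairs of genes compared.

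**Figure D4:**
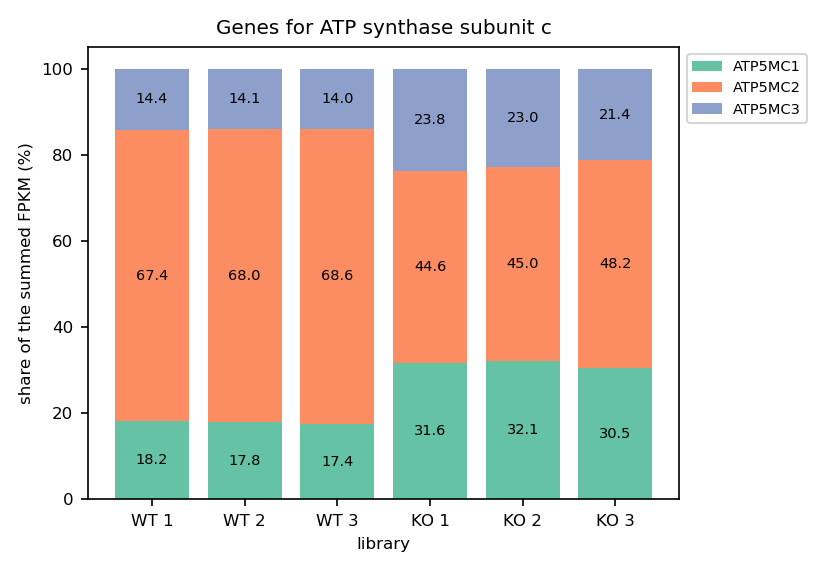
Share of each subunit c gene in the summed FPKM of ATP5MC1, ATP5MC2 and ATP5MC3 (percent, vertical axis) in each of the 6 libraries (horizontal axis). ATP5MC2 gives 67.4 to 68.6% in the WT libraries and 44.6 to 48.2% in the KO libraries.

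The peripheral stalk, which holds the F1 head still against the ring, was also mixed. ATP5PB, its membrane-anchored subunit b, had 124, 132 and 125 CPM in WT and 164, 164 and 171 CPM in KO (log2 fold change 0.39, SE 0.050, adjusted p = 5.46e-06, edgeR). ATP5PD, subunit d, had 50.1, 44.2 and 46.3 CPM in WT and 26.5, 23.9 and 31.9 CPM in KO (log2 fold change -0.77, SE 0.096, adjusted p = 5.45e-06, edgeR). Neither gene overlapped between groups. ATP5PF, coupling factor 6, rose by 0.35 (42.2 ± 4.24 to 53.9 ± 4.85 CPM), and ATP5PO, the OSCP subunit at the top of the stalk, was not called (67.0 ± 3.11 and 63.1 ± 6.24 CPM) except without KO library 3, where it was lower (-0.19). ATP5PB overlaps WDR77 on the opposite strand, and WDR77 was higher in KO (1.33). KCTD2, opposite ATP5PD, was higher as well (0.20). The part of these overlaps in the counts was not tested.

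The small membrane subunits, which help ATP synthase dimers to form and bend the inner membrane, mostly rose. ATP5MD, also called DAPIT, had 38.6, 36.5 and 35.3 CPM in WT and 58.5, 53.4 and 58.5 CPM in KO (log2 fold change 0.63, SE 0.066, adjusted p = 5.93e-07, edgeR). ATP5MF, subunit f, rose by 0.75 (7.61 ± 0.831 to 12.8 ± 1.26 CPM), ATP5MG, subunit g, by 0.38 (58.2 ± 3.81 to 76.0 ± 10.1 CPM) and ATP5MPL by 0.40 (34.3 ± 4.21 to 45.4 ± 2.61 CPM). ATP5ME, subunit e, was low and not called (3.87 ± 0.544 and 3.16 ± 0.482 CPM, adjusted p = 0.183, edgeR). ATP5S, factor B, which carries the current symbol DMAC2L, rose by 0.61 (11.7 ± 0.314 to 18 ± 0.560 CPM). TAF5, opposite ATP5MD, was higher as well (0.73), and ATP5MF shares its locus with PTCD1 and a readthrough gene that had at most 6 counts in a library.

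Summed over all 55 genes, the WT libraries held 4378 ± 59.6 CPM and the KO libraries 4526 ± 311 CPM. By class, complex III went from 972 ± 20.7 to 866 ± 69.5 CPM and the F1 head from 1515 ± 31.6 to 1454 ± 88.8 CPM. The complex IV subunits went from 800 ± 28.9 to 765 ± 84.2 CPM. The Fo part with the stalk went from 632 ± 11.4 to 740 ± 50.3 CPM, and the complex IV assembly factors from 334 ± 9.12 to 408 ± 21.6 CPM. As a share of all counts, with no TMM factor, the 55 genes took 0.405 ± 0.00381% in WT and 0.489 ± 0.0235% in KO. So the total on the scaled level differed by less than the spread of the KO libraries, while the sum of complex III was lower in each KO library than in any WT library and the sums of the Fo genes and of CYCS were higher. As shares of all counts, complex III and the F1 head were instead higher in KO on average, at 0.0900 ± 0.00152% in WT against 0.0934 ± 0.00570% in KO and at 0.140 ± 0.00235% against 0.157 ± 0.00595%, so their direction turned with the scaling. The mean of the complex IV subunits turned too, at 0.0741 ± 0.0024% in WT against 0.0825 ± 0.0078% in KO. Shares of the Fo genes (0.0585 ± 0.00114% and 0.0798 ± 0.00426%) and of CYCS (0.0115 ± 0.000685% and 0.0317 ± 0.00123%) were higher in KO as well. The median coefficient of variation of the tested genes was 4.79% in WT and 9.38% in KO, against 5.08 and 8.29% over all genes.

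The respiratory genes were short, with a median length of 1140 nt for those tested against 3106 nt for all genes tested. Spearman's rho between gene length and log2 fold change was 0.05 across the 51 genes and 0.02 across all, given as a description of genes that share libraries. Among all tested genes no longer than the upper quartile of the respiratory genes, 72.5% changed, which is close to the share of 68.6% above.

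Promoters of respiratory genes often hold binding sites for NRF1 and for the ETS factor GABP. RefSeq windows of 250 nt before the start (GRCh38.p14) were matched by symbol for 43 of the 55 genes. ATP5F1B, ATP5F1D, ATP5MC3, ATP5MF, ATP5S, COX11, COX6C, COX7A1, CYC1, SCO2, UQCRB and UQCRHL had no entry. On either strand, the NRF1 motif (GCGCA, any base, then GCGC) stood in the windows of 9 genes (20.9%), beside 6.20% of all 27305 genes with a window. The ETS motif CCGGAAG stood in 15 (34.9%, beside 10.2%) and the hypoxia response core ACGTG in 12 (27.9%, beside 21.7%). The 27305 genes outnumber the 20610 of the count table and were not limited to genes expressed here. The shares are therefore not like for like, and no enrichment was tested. A match describes letters only and is not a site.

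Genes with a motif were found in both directions of change. Among all 43 genes with a window, 15 were higher, 12 lower, 13 not called and 3 not tested. Of the 9 with the NRF1 motif, 3 were higher, 2 lower, 3 not called and 1 not tested. Of the 15 with the ETS motif, 7 were higher, 4 lower and 4 not called, and of the 12 with ACGTG, 5 were higher, 3 lower and 4 not called. UQCR11 (window chr19:1605463-1605712, minus strand) and ATP5MC1 (window chr17:48892537-48892786, plus strand) are shown because both rose, although the first holds all 3 motifs, in capitals, and the second none. In the first, CACGTG reads as ACGTG on both strands, so its matches overlap.
UQCR11: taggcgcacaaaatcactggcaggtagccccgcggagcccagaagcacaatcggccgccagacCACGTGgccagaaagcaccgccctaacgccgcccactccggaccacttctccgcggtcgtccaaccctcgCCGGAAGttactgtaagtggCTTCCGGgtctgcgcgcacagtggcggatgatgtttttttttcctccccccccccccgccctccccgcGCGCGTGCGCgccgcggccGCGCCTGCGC
ATP5MC1: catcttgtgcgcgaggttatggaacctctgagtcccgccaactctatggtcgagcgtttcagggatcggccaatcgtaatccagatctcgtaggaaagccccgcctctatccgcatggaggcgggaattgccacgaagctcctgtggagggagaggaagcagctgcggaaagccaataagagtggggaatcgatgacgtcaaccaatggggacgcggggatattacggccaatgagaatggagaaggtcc

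Other genes that make or use these complexes were counted in the same fit, beside the background of 40.0% higher and 36.3% lower. The 6 mitochondrially encoded subunits were not among the symbols of the table, so the catalytic core of complex IV was not analysed here. Values of genes on chromosome 20 were not read as expression, since 275 of its 541 symbols had no count in any library, against 14% of genes elsewhere. This takes out UQCC1, COX4I2 and PET117, and the F1 subunit ATP5F1E mentioned above.

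Of 6 tested assembly factors of complex III, 4 were higher, 1 lower and 1 not called. HCCS, the lyase that attaches haem to cytochrome c and cytochrome c1, was at 24.8, 27.0 and 26.5 CPM in WT and 56.0, 54.3 and 59.5 CPM in KO (log2 fold change 1.12, SE 0.068, adjusted p = 1.11e-09, edgeR). Both HCCS and CYCS thus rose. LYRM7 and BCS1L, which guard the Rieske protein and insert it, rose by 0.82 and 0.91, from 20.7 ± 0.924 to 36.5 ± 0.289 CPM and from 24.2 ± 2.27 to 45.3 ± 4.58 CPM. TTC19, which clears fragments of the Rieske protein, fell from 128 ± 5.14 to 70.4 ± 3.32 CPM (-0.86).

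Of 24 other subunits and assembly factors of complex IV, 10 were higher, 5 lower and 9 not called. By library size alone 12 were higher and 1 lower, and without KO library 3 there were 9 higher and 10 lower. COA7, an assembly factor of the intermembrane space, had 19.7, 20.4 and 18.4 CPM in WT and 81.4, 81.8 and 78.4 CPM in KO (log2 fold change 2.04, SE 0.066, adjusted p = 1.08e-12, edgeR). COA6, a partner of SCO1 in copper delivery, rose by 0.79 (23.8 ± 0.103 to 41.2 ± 1.80 CPM) and HIGD1A by 0.98 (52.4 ± 4.28 to 104 ± 6.92 CPM). OXA1L, the insertase of the inner membrane, fell by 0.73 (243 ± 3.79 to 147 ± 12.3 CPM). COX4I1, the widespread subunit 4 form, was not called (277, 266 and 264 CPM in WT, 270, 217 and 274 CPM in KO).

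Of 6 tested assembly factors of complex V, 5 were higher and 1 lower. TMEM70, which helps to incorporate subunit c, had 19.7, 19.2 and 20.3 CPM in WT and 58.2, 56.9 and 58.2 CPM in KO (log2 fold change 1.55, SE 0.065, adjusted p = 1.86e-11, edgeR). TMEM242, which works with it, rose by 0.66 (20.3 ± 0.310 to 32.1 ± 1.58 CPM). ATPAF1 and ATPAF2, chaperones of the beta and alpha subunits, rose by 0.74 and 0.88. The alpha subunit gene itself fell, as given above. The fall was that of DMAC2 (-0.21), and it was 0.01 by library size alone.

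Of 16 genes listed for respiratory gene expression or mitochondrial upkeep, POLG, TWNK, LONP1 and CLPP among them, 11 were higher, 3 lower and 2 not called. NRF1, among those higher (0.22), lost its call with RLE factors, by DESeq2 and without a filter on low counts. Its call was also lost with the replicate number as a block and whichever library was left out. TFAM, which packages mitochondrial DNA and starts its transcription, had 58.7, 63.9 and 63.1 CPM in WT and 190, 190 and 198 CPM in KO (log2 fold change 1.64, SE 0.054, adjusted p = 1.43e-12, edgeR). TFB2M, its partner in transcription, and TWNK, the mitochondrial DNA helicase, rose by 1.38 and 1.37, from 36.1 ± 1.52 to 93.9 ± 2.26 CPM and from 88.1 ± 1.62 to 228 ± 15.3 CPM. TFB1M, the relative of TFB2M that methylates mitochondrial ribosomal RNA, went the other way, with 60.7, 58.9 and 59.8 CPM in WT and 9.58, 9.76 and 8.41 CPM in KO (log2 fold change -2.69, SE 0.078, adjusted p = 3.56e-13, edgeR). The related pair therefore changed in opposite directions in every KO library.

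Of 10 genes of the death pathway in which cytochrome c takes part, 4 were higher, 5 lower and 1 not called, or 5 and 2 by library size alone. BAK1, which forms pores in the outer membrane, rose by 0.83 (32.8 ± 0.690 to 58.5 ± 1.75 CPM), and the caspase inhibitor XIAP rose by 0.62 (63.4 ± 1.51 to 97.7 ± 3.84 CPM). BID, which activates BAK1, fell by 0.79 (63.3 ± 2.78 to 36.7 ± 2.67 CPM), and HTRA2, a protease that counters XIAP, fell by 0.57 (50.7 ± 2.51 to 34.2 ± 2.98 CPM). Pore-forming and inhibitory genes thus both rose beside CYCS. APAF1, the direct partner of cytochrome c, was at 14.6 ± 1.23 CPM in WT and 11.3 ± 0.468 CPM in KO (log2 fold change -0.37, adjusted p = 0.00386, edgeR), a value of -0.15 and not called by library size alone.

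**Figure D5:**
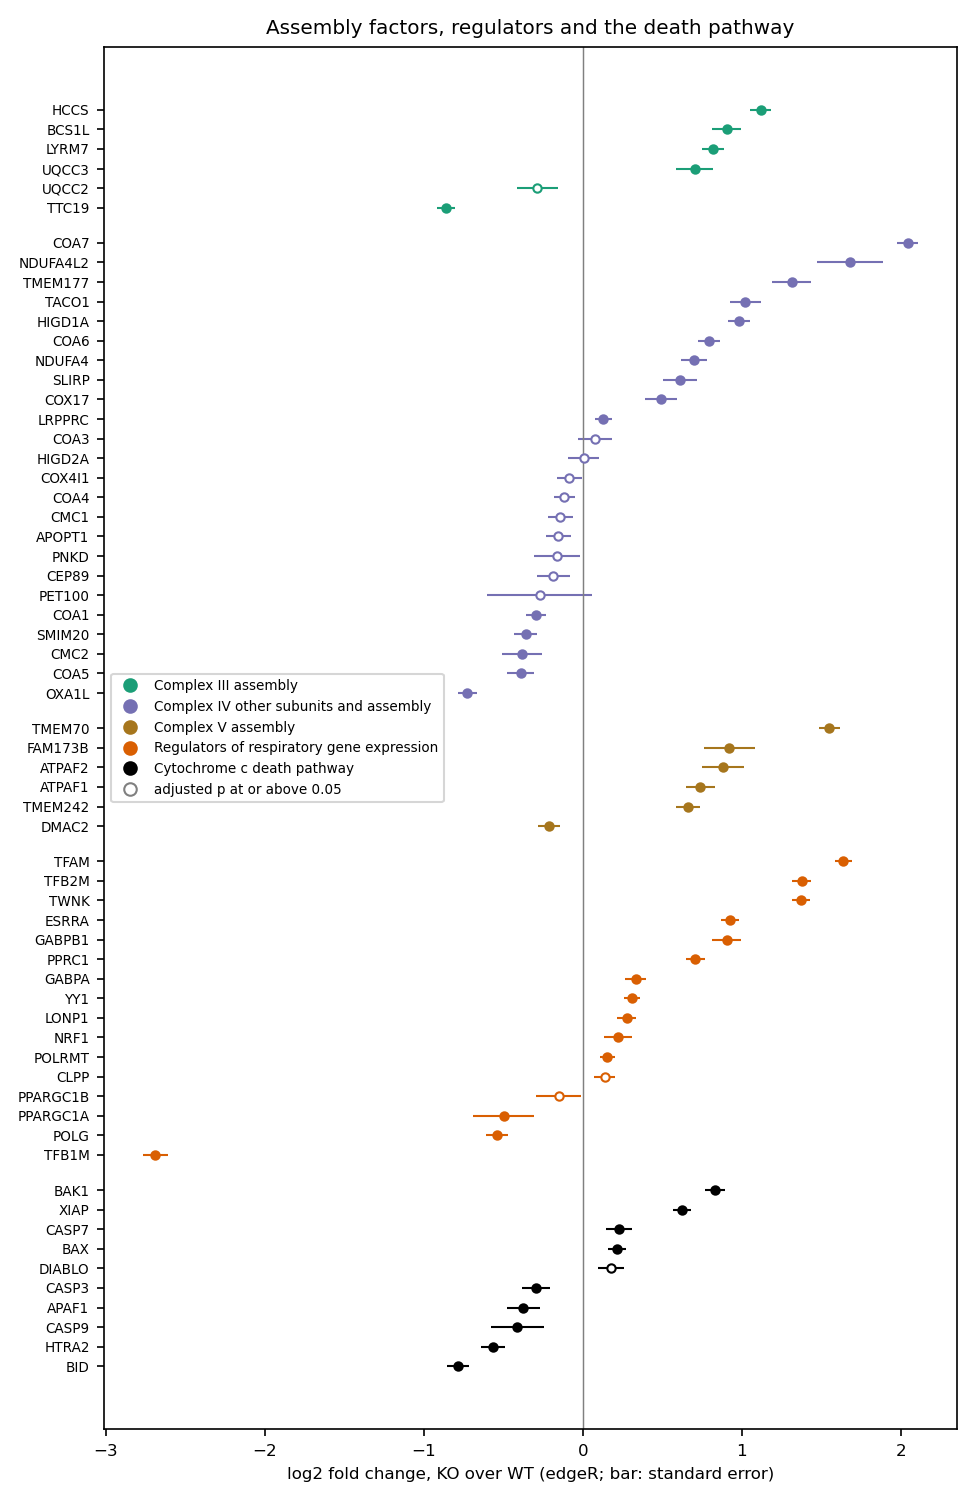
Log2 fold change (KO over WT, horizontal axis; bars are standard errors of the edgeR fit) of the tested assembly factors, regulators and death pathway genes, coloured by list, with open points for genes not called. COA7 at 2.04 and TFAM at 1.64 lie to the right, and TFB1M at -2.69 lies furthest left.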

How the data were processed

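Polyadenylated RNA of 3 WT and 3 PGK1 KO libraries was sequenced. Reads were processed by the authors with fastp and HISAT on hg38, per the submitters' processing notes. The sources used here give no versions, counting tool, annotation, strand or multi-mapping settings. The authors deposited read counts per gene symbol, whole numbers summing to 30175903 to 47047186 per library, and FPKM values, which are those counts over the library total and 1 length per gene, and so add no measurement. A count of 1 is 0.0209 to 0.0315 CPM after scaling.

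Counts of all genes were tested with the quasi-likelihood test of edgeR 4.0.16 (R 4.3.3), using TMM factors, default filterByExpr, robust dispersion and no term but group. P-values were adjusted after Benjamini and Hochberg over the 13249 genes past the filter, and genes under 0.05 were called. WT libraries had TMM factors of 0.921 to 0.929 and KO libraries of 1.053 to 1.097. CPM is relative to library totals times these factors. Means are given ± SD over 3 libraries. The scripts were tested on simulated data. Pairs of related genes were compared by an exact two-sided permutation test of log2 FPKM ratios. Coordinates, overlaps and pseudogene names come from GENCODE release 29 (GRCh38), promoter windows from RefSeq (GRCh38.p14). The genes and lists were chosen with earlier results of these data known. Named by rule were, in each class, the 4 genes with the smallest p and the highest FPKM, isoform pairs, genes near the threshold (adjusted p 0.01 to 0.2) and up to 4 genes per list of other genes. UQCRFS1, COX18, COX10 and further genes were named as the members of their class. Alternatives were other scalings (RLE, upper quartile, library size alone), other filters, a replicate block, each library left out, DESeq2 1.42.0, limma 3.58.1 (voom, log2(FPKM + 1) and log2(FPKM + 0.1)), removal of a length trend, an adjusted p under 0.01 and, as an addition chosen after seeing the data, leaving out chromosome 20.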

Additional observations from a re-analysis of the deposited data

How the results depend on the processing

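Of 35 genes called among the 51 tested, 29 kept their direction and their call in every setting, of 18, that gave them a value. SCO2 and COX6B2 are among them, although each passed the main filter through a single group. SCO2 fell under the filter of 1 CPM in 3 libraries and has no value there. The count of changed respiratory genes was 35 to 42 over the alternatives with a threshold of 0.05 and 33 at 0.01. Leaving out each library gave 35 to 40 changed, 21 to 24 higher, 13 to 18 lower and a median log2 fold change of 0.08 to 0.16. The median moved from 0.10 to 0.33 with library size alone and to 0.32 with limma on either log2(FPKM + 1) or log2(FPKM + 0.1), none of which holds the TMM factors; 31 genes were then higher. COX5A (-0.01) became 0.21 in the same 3 settings, and DMAC2 (-0.21) became 0.01. HIGD2A (0.01) became -0.16 without KO replicate 3. The cause was not tested. The KO minus WT difference in the log2 ratio of COX7A2L to COX7A2 (-0.09) was -0.17 to 0.00 with each library left out, and 0.00 without KO replicate 2.

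With the replicate number as a block (replicate block), 37 respiratory genes changed, 23 higher and 14 lower, with COX7A2L (-0.21, adjusted p = 0.0356, edgeR) and COX19 (0.24, adjusted p = 0.0453, edgeR) newly called, and the count of all genes changed was 9986 instead of 10116. Same-numbered WT and KO libraries deviated together with correlations of 0.00303 to 0.00437, and no WT library correlated best with its own number, so the libraries share only a number. Depth limits COX6A2, COX7A1, COX7B2, COX8C, SCO2 and COX6B2. With 3 libraries a group, an exact permutation test cannot go below 0.1.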
